A study of Caenorhabditis elegans with 6 samples.

Results

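The *ceh* genes, named for *C. elegans* homeobox, encode transcription factors that bind DNA through a homeodomain. Homeobox genes set cell fates along the body and in single cell lineages of the embryo, and in the adult worm many of them keep up the identity of particular neurons, glands or muscles. Their classes are told apart by the domains that stand beside the homeodomain, such as the CUT, POU, LIM and PBC domains, and by the animal homeobox family their homeodomain resembles.

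The genes were chosen by name, as those called *ceh* with a number, and kept when their raw counts summed to 10 or more over the 6 libraries. Of 46904 genes in the count tables, 64 had such a name and 58 met the limit. Just inside it lay *ceh-81* with 24 counts, *ceh-76* with 25 and *ceh-1* with 26, and just outside it *ceh-84* with 9 and *ceh-87* with 7. A further 4 names had 2 counts or fewer. RNA was taken from whole wild-type Bristol N2 hermaphrodites after 5 days of feeding that began at 3 days of age. The diets were *E. coli* OP50 mixed in equal parts with *Lactococcus lactis* LL12007, the nisin-producing strain, OP50 mixed in equal parts with *L. lactis* LL100933, and OP50 alone as the control feed. There were 2 libraries per diet, made from pooled whole worms, so that the germ line and any embryos inside the worms were included, and no group carried a mutation or transgene. The sample labels write LL 100923 for the strain that the study calls LL100933 (NBRC 100933), and the name of the study is used here.

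The libraries held 14929196 to 21691687 counts assigned to genes, of which the *ceh* genes took 0.0963% to 0.113%. A count of at least 1 was found for all 58 genes in 5 libraries, while *ceh-81* was at 0 in replicate 1 of OP50. The 53 genes that passed the expression filter of edgeR were tested together with all other genes that passed it, 14899 in all, in a quasi-likelihood fit to the 6 libraries. Calls rest on an edgeR p below 0.05 after Benjamini-Hochberg adjustment over all these genes. The genes not tested were *ceh-1*, *ceh-28*, *ceh-63*, *ceh-76* and *ceh-81*. On the first principal component of all tested genes, with 48.2% of the variance, OP50 replicate 2 lay at -52.5 and OP50 replicate 1 at -21.2. Replicates 1 and 2 lay at -4.74 and 18.9 for OP50 + LL100933 and at 24.3 and 35.3 for OP50 + LL12007. OP50 replicate 1 was thus nearer to replicate 1 of OP50 + LL100933 than to the other OP50 library. The log correlation of the libraries of a group was 0.991 for OP50 + LL12007, 0.987 for OP50 + LL100933 and 0.981 for OP50. No source states whether replicate libraries were separate cultures, so the spread behind the p-values may be technical. For 1 gene, an exact two-sided permutation test of 2 libraries against 2 gives p = 0.333 at the least, and the calls rest on the spread shared over genes.

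Transcripts of the *ceh* genes were mostly present at low levels. Levels are given as counts per kilobase of exon per 1000000 counts after TMM scaling, so that genes of different length can be set side by side. The median over the 53 tested *ceh* genes was 6.78, against 11.5 over all genes tested, and 18 of the 53 lay above the median of all genes. The highest level was that of *ceh-38*, a Onecut gene expressed in most cells, with a mean of 52.2 and a range of 49.2 to 56.7 over the libraries. It was followed by *ceh-20*, the worm's Extradenticle and Pbx homolog and a cofactor of Hox proteins, at 45.4 with a range of 38.1 to 54.8. Next came *ceh-88* at 41.4, the Distal-less homolog *ceh-43* at 29.04 and the *ceh-32* gene of the sine oculis class, which acts in head morphogenesis, at 27.97. The ranges of *ceh-38* and *ceh-20* overlapped, as did those of *ceh-20* and *ceh-88* and those of *ceh-43* and *ceh-32*.

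Among the lower levels, the HB9 homolog *ceh-12*, which acts in VB motor neurons, had a mean level of 1.05, and the NK-2 gene *ceh-28*, which acts in the pharyngeal neuron M4, had 0.563. A mean level under 1 was found for 7 genes and one above 10 for 19. By raw counts the set was uneven, since *ceh-38*, the CUX homolog *ceh-44*, *ceh-100*, *ceh-20* and *ceh-32* together held 44.5% of all counts of the 58 genes. In whole worms, fewer cells of a type and less RNA per cell cannot be told apart, which holds for every level and difference given here.

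**Figure D1:**
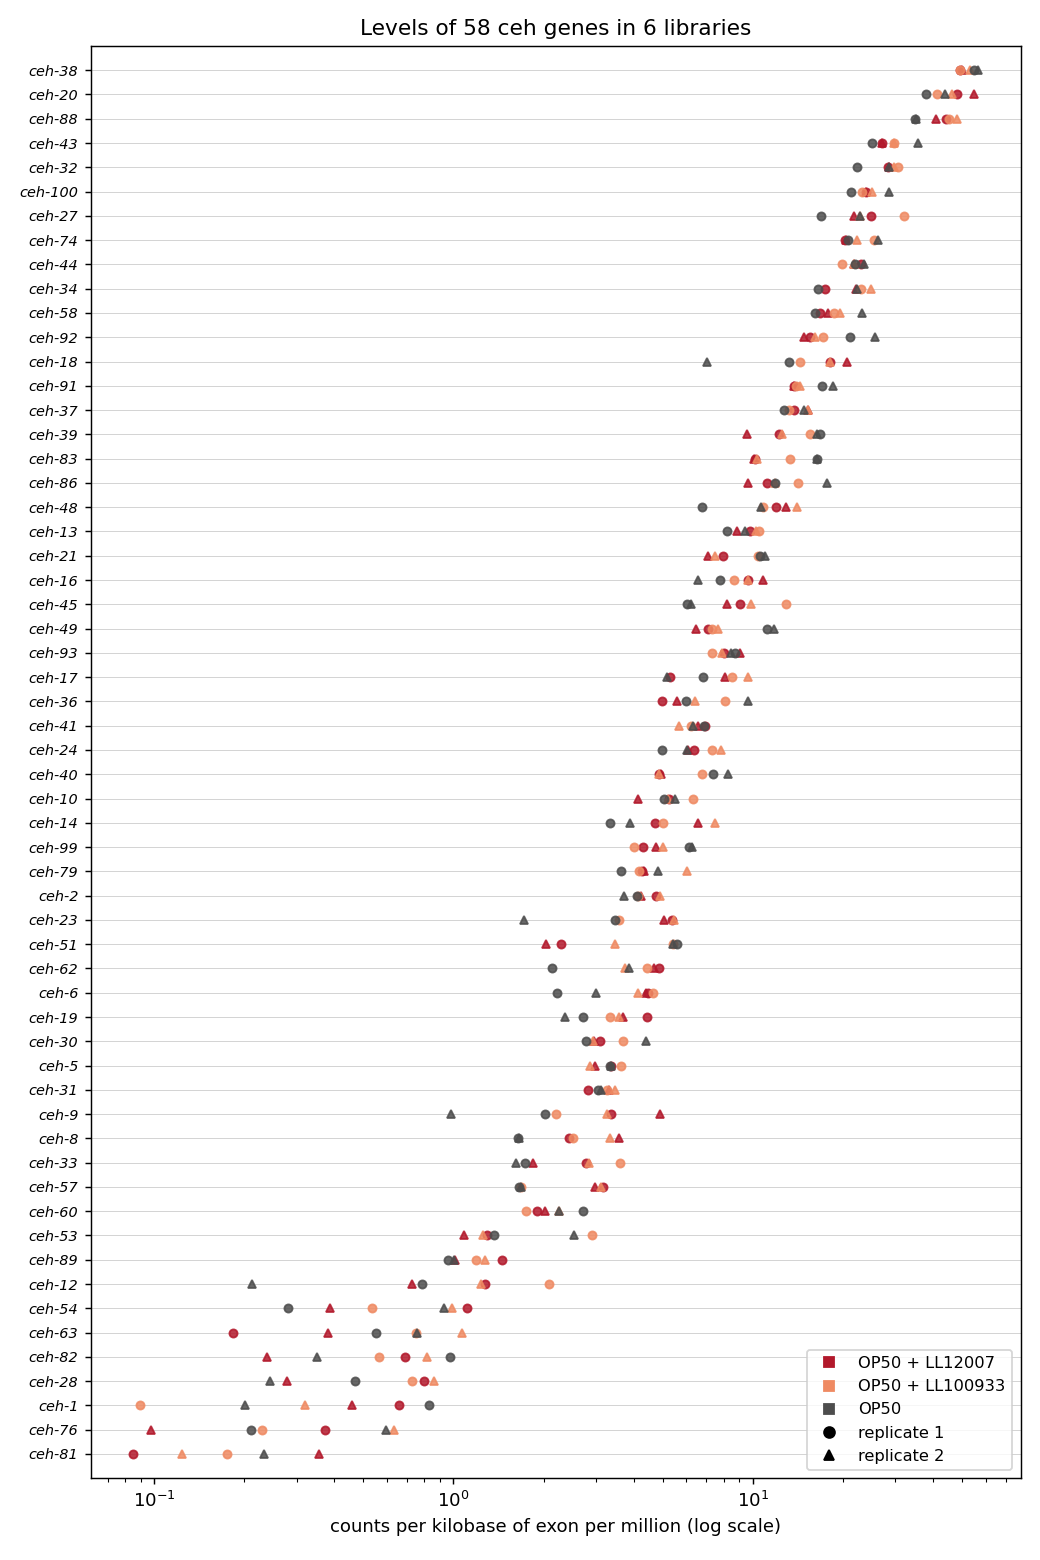
Level of each of the 58 *ceh* genes in every library, as counts per kilobase of exon per 1000000 counts on a log scale, with genes ordered by their mean. Dark red marks OP50 + LL12007, orange OP50 + LL100933 and grey OP50, circles are replicate 1 and triangles replicate 2. Mean levels run from 52.2 for *ceh-38* at the top to 0.162 for *ceh-81* at the bottom, whose value of 0 in OP50 replicate 1 is not drawn.

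Worms fed OP50 + LL12007 had lower transcript levels of 5 *ceh* genes and a higher level of 1 than worms fed OP50. The falls were those of *ceh-51*, *ceh-49*, *ceh-83*, *ceh-92* and *ceh-39*, and the rise was that of *ceh-6*. Of the tested *ceh* genes, 9.43% were thus called lower and 1.89% called higher, against 7.71% and 8.76% of all genes tested. With upper-quartile factors in place of TMM the calls on *ceh* genes were the same in number, and the shares of all genes became 5.41% lower and 10.2% higher. At an unadjusted p under 0.05 there were 10 *ceh* genes lower (18.9%, against 18.1% of all genes) and 14 higher (26.4%, against 18.8%). The median log2 fold change over the 53 genes was 0.027, with a range of -1.35 to 1.42, and that over all genes was 0.015. The libraries of the groups did not overlap for 15 *ceh* genes that were lower (28.3%, against 33.9% of all genes) and 18 that were higher (33.96%, against 34.6%).

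With OP50 + LL100933, 1 *ceh* gene was called higher than with OP50, *ceh-45*, and 0 were called lower by edgeR. These are 1.89% and 0% of the tested *ceh* genes, against 4.38% and 2.24% of all genes. With upper-quartile factors *ceh-88* was called higher as well, and the shares of all genes became 5.63% higher and 0.953% lower. At an unadjusted p under 0.05, 9 *ceh* genes were higher (16.98%, against 15.6% of all genes) and 5 were lower (9.43%, against 15.8%), and DESeq2 on the 6 libraries called 2 of the 38 with an adjusted p higher and 1 lower (5.26% and 2.63%, against 8.43% and 4.94% of all genes). The median log2 fold change of the *ceh* genes was 0.13 and that of all genes 0.021. Groups did not overlap for 22 genes that were higher (41.5%, against 29.2% of all genes) and 14 that were lower (26.4%, against 29.9%). Both comparisons use the same OP50 libraries, so the diets are set side by side below and not counted as separate evidence. The standard error of a log2 fold change, computed from the fitted value and its F statistic, had a median of 0.22 over the *ceh* genes in each comparison, and the log2 fold change was within 0.5 of 0 for 30 of 53 genes with OP50 + LL12007 and 40 of 53 with OP50 + LL100933.

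**Figure D2:**
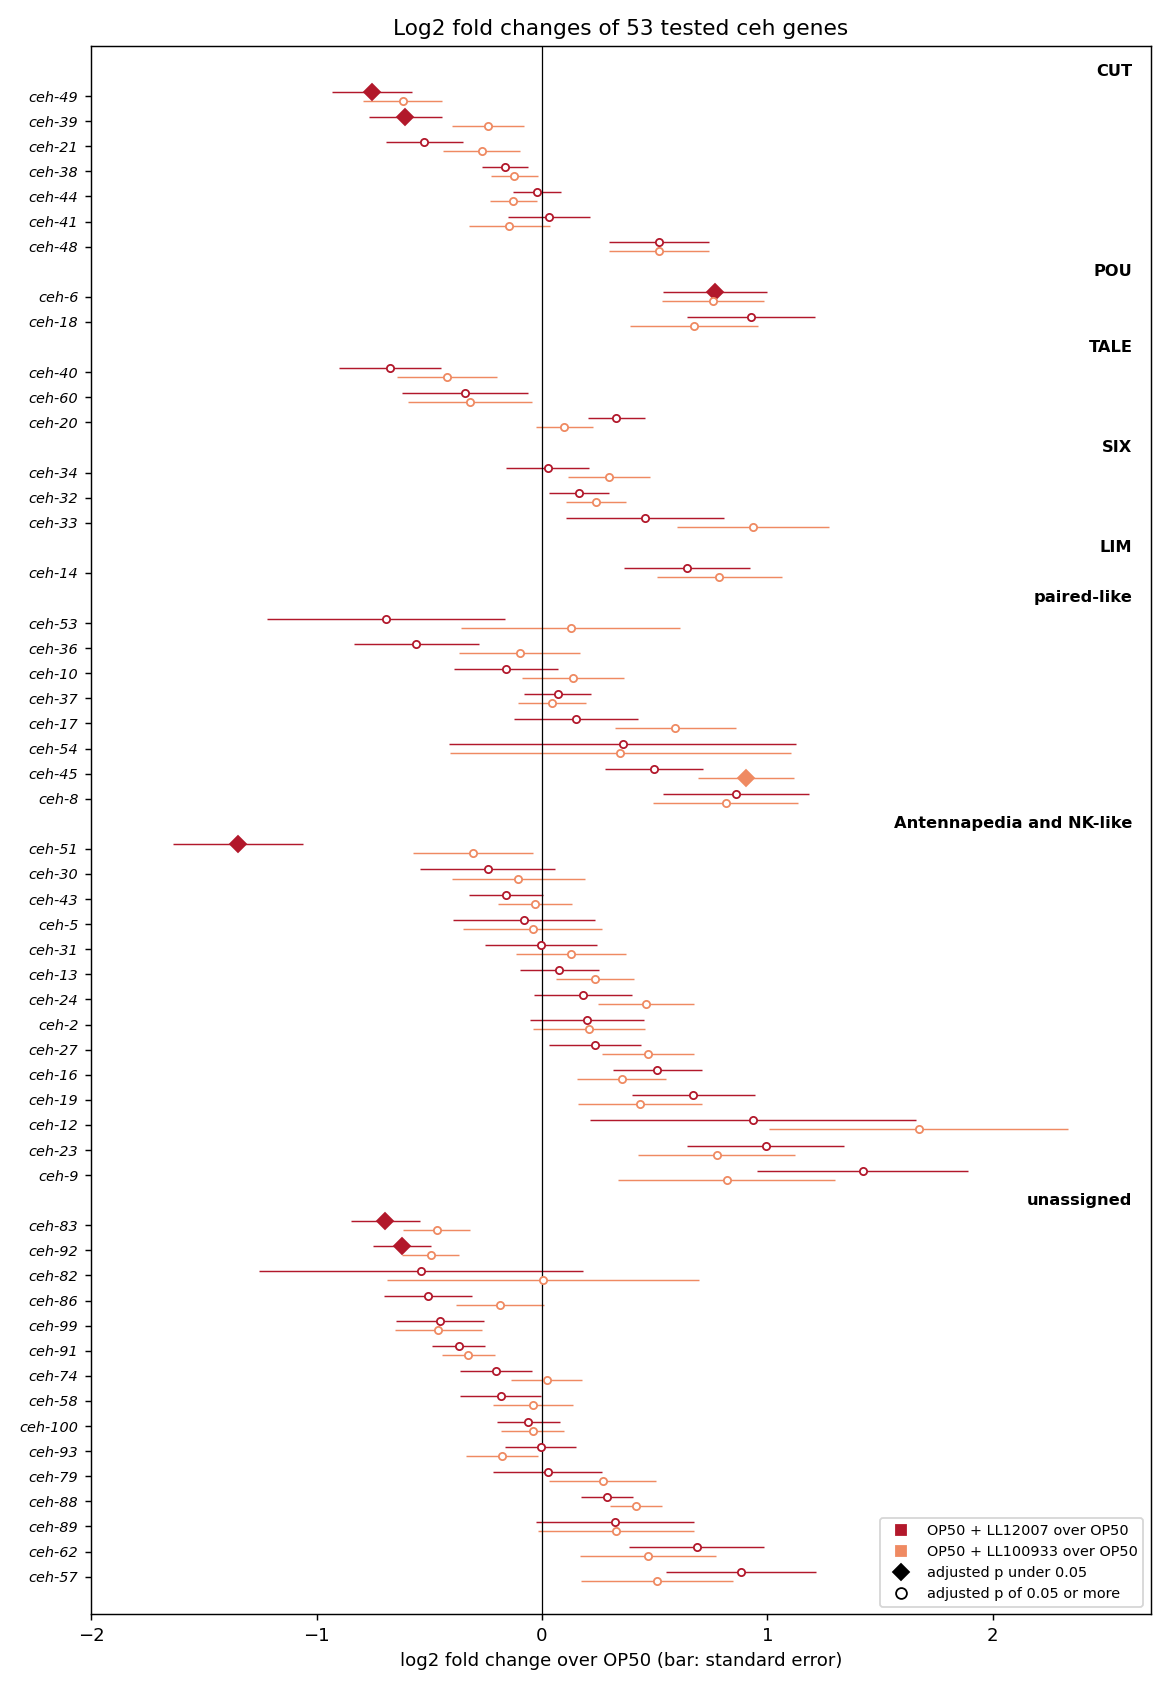
Log2 fold change over OP50 of the 53 tested *ceh* genes by class, in dark red for OP50 + LL12007 and in orange for OP50 + LL100933, with bars of 1 standard error. Filled diamonds mark an adjusted p under 0.05 in edgeR, which 5 genes below 0 and *ceh-6* above 0 reached with OP50 + LL12007 and *ceh-45* alone with OP50 + LL100933, and open circles mark the rest.

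*ceh-51*, a gene of the NK-like group that specifies the embryonic mesoderm lineage MS together with the T-box gene *tbx-35*, showed the largest called difference of a *ceh* gene. It lies on chromosome V at 18874133 to 18876169 on the plus strand (WBcel235) and had 38.7 and 34.6 normalized counts with OP50 + LL12007 and 91.6 and 58.9 with OP50 + LL100933, against 94.9 and 91.97 with OP50. Both OP50 + LL12007 libraries were far below the other 4, and replicate 2 of OP50 + LL100933 lay between them and OP50. The log2 fold change with OP50 + LL12007 was -1.35 (standard error 0.29, edgeR adjusted p = 0.0242), and with OP50 + LL100933 it was -0.31 (adjusted p = 0.451 from edgeR). Between the strains it was -1.04 with a standard error of 0.29, which did not pass the adjusted test (adjusted p = 0.290 from edgeR).

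The Onecut genes *ceh-49* and *ceh-39* belong to the CUT class. *ceh-39* is one of the X-linked signals that repress the sex-determination switch *xol-1* in embryos with a double dose of the X chromosome. It lies on chromosome X at 1853874 to 1856189 on the minus strand and had 396 and 310.0 normalized counts with OP50 + LL12007 and 502 and 407 with OP50 + LL100933, against 543 and 532 with OP50, a log2 fold change of -0.61 with OP50 + LL12007 (standard error 0.16, edgeR adjusted p = 0.0373). All 4 *Lactococcus* libraries were below both OP50 libraries, and the OP50 + LL12007 libraries were lowest. *ceh-49*, on chromosome V at 6118332 to 6120206 on the minus strand, had 140.4 and 128 normalized counts with OP50 + LL12007 and 144 and 151 with OP50 + LL100933, against 219.7 and 233 with OP50. The 4 *Lactococcus* libraries lay close together there, well under OP50. Its log2 fold change was -0.75 with OP50 + LL12007 (standard error 0.18, edgeR adjusted p = 0.0271). With OP50 + LL100933 it was -0.62 and missed the threshold (standard error 0.17, edgeR adjusted p = 0.0587).

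*ceh-92* and *ceh-83* are homeobox genes to which no class was assigned here. *ceh-92*, on chromosome III at 11581600 to 11589133 on the plus strand, had 667 and 635 normalized counts with OP50 + LL12007 and 734 and 689 with OP50 + LL100933, against 905 and 1099 with OP50. All *Lactococcus* libraries were below both OP50 libraries, which differed among themselves. The log2 fold change was -0.62 with OP50 + LL12007 (standard error 0.13, edgeR adjusted p = 0.0231). With OP50 + LL100933 it was -0.49 (standard error 0.13, edgeR adjusted p = 0.0504), just short of a call. *ceh-83*, on chromosome II at 1733718 to 1736533 on the minus strand, had 334 and 329.6 normalized counts with OP50 + LL12007 and 437 and 338 with OP50 + LL100933, against 536 and 538 with OP50. Its OP50 libraries nearly coincided, and replicate 2 of OP50 + LL100933 was as low as the OP50 + LL12007 libraries while replicate 1 was not. The log2 fold changes were -0.69 with OP50 + LL12007 (standard error 0.15, edgeR adjusted p = 0.0245) and -0.47 with OP50 + LL100933 (standard error 0.15, edgeR adjusted p = 0.0776).

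All 5 falls held when DESeq2, other scaling factors, no filter on low counts or a fit to the 4 libraries of OP50 + LL12007 and OP50 was used, but they needed both OP50 + LL12007 libraries. Without replicate 1 of OP50 + LL12007 the adjusted p of the 5 genes in edgeR was 0.0918 to 0.119, and without replicate 2 it was 0.233 to 0.328. In those fits 0 of all genes were called lower, and 15 and 5 were called higher. The log2 fold changes over the fits that left out 1 library ran over -1.43 to -1.25 for *ceh-51*, -0.82 to -0.67 for *ceh-49*, -0.70 to -0.66 for *ceh-83*, -0.76 to -0.47 for *ceh-92* and -0.79 to -0.42 for *ceh-39*. Without OP50 replicate 2, *ceh-51* and *ceh-83* were called and *ceh-92*, *ceh-49* and *ceh-39* were at an adjusted p of 0.0554, 0.0606 and 0.0662 in edgeR. Without OP50 replicate 1, 9 *ceh* genes were called lower (16.4% of those tested, against 12.4% of all genes).

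**Figure D3:**
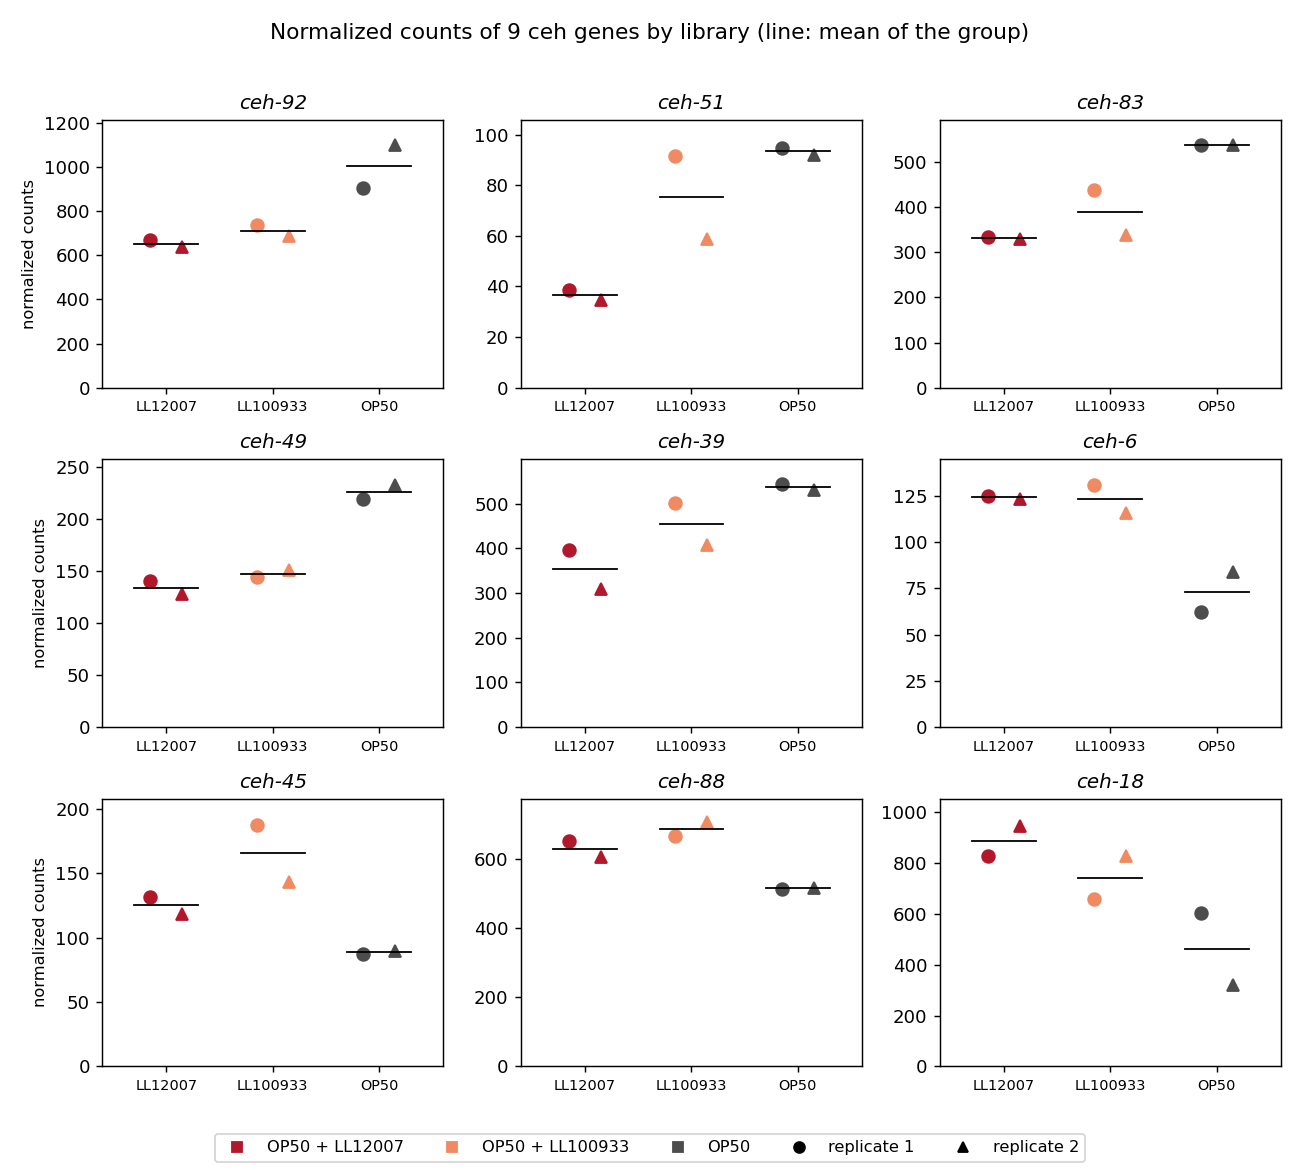
Normalized counts (raw counts rescaled to a common library size, linear axes that start at 0) of 9 *ceh* genes in every library, with OP50 + LL12007 on the left, OP50 + LL100933 in the middle and OP50 on the right of each panel, and a line at the mean of each group. *ceh-51* stands at 38.7 and 34.6 with OP50 + LL12007 and at 94.9 and 91.97 with OP50, and *ceh-6* at 125 and 123 with OP50 + LL12007 and at 62.4 and 83.9 with OP50.

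Germline and oocyte markers were lower in the same libraries, all of them called with OP50 + LL12007 and fewer with OP50 + LL100933. The 9 germline markers, among them the P granule genes *pgl-1*, *pgl-3* and *glh-1*, summed to 17315 and 15096 with OP50 + LL12007 and 20482 and 17149.7 with OP50 + LL100933, against 24562 and 26764 with OP50. With OP50 + LL12007, 9 of 9 were called lower, and with OP50 + LL100933 3 of 9 were. Among all genes tested, 7.71% and 2.24% were called lower with these diets. The 6 oocyte markers summed to 39798 and 35359 with OP50 + LL12007 and 44768 and 39200.2 with OP50 + LL100933, against 54991 and 60393 with OP50, and 6 of 6 and 1 of 6 were called lower. Of 10 early embryo markers 7 were tested, and their list summed to 182 and 151 with OP50 + LL12007 and 236 and 179 with OP50 + LL100933, against 251 and 334 with OP50. With OP50 + LL12007, *pes-10* was the 1 early embryo marker called, at a log2 fold change of -0.97 (adjusted p = 0.0430 from edgeR), and with OP50 + LL100933 0 of 7 were. *sdz-38*, a gene of the same list, was not called and had log2 fold changes of 0.18 with OP50 + LL12007 and 0.48 with OP50 + LL100933. Of the genes that define the MS lineage, *tbx-35* had 16 counts over the 6 libraries, *med-2* had 24 and *med-1* had 1, with 0 in 5 libraries. None of them was tested. *tbx-35* had 3.3 and 2.3 normalized counts with OP50 + LL12007 and 6.3 and 3.2 with OP50 + LL100933. With OP50 it had 0.83 and 0, and counts this low cannot show whether *tbx-35* rose or fell. Whether these tissues had a part in the falls of the 5 *ceh* genes was not tested.

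**Figure D4:**
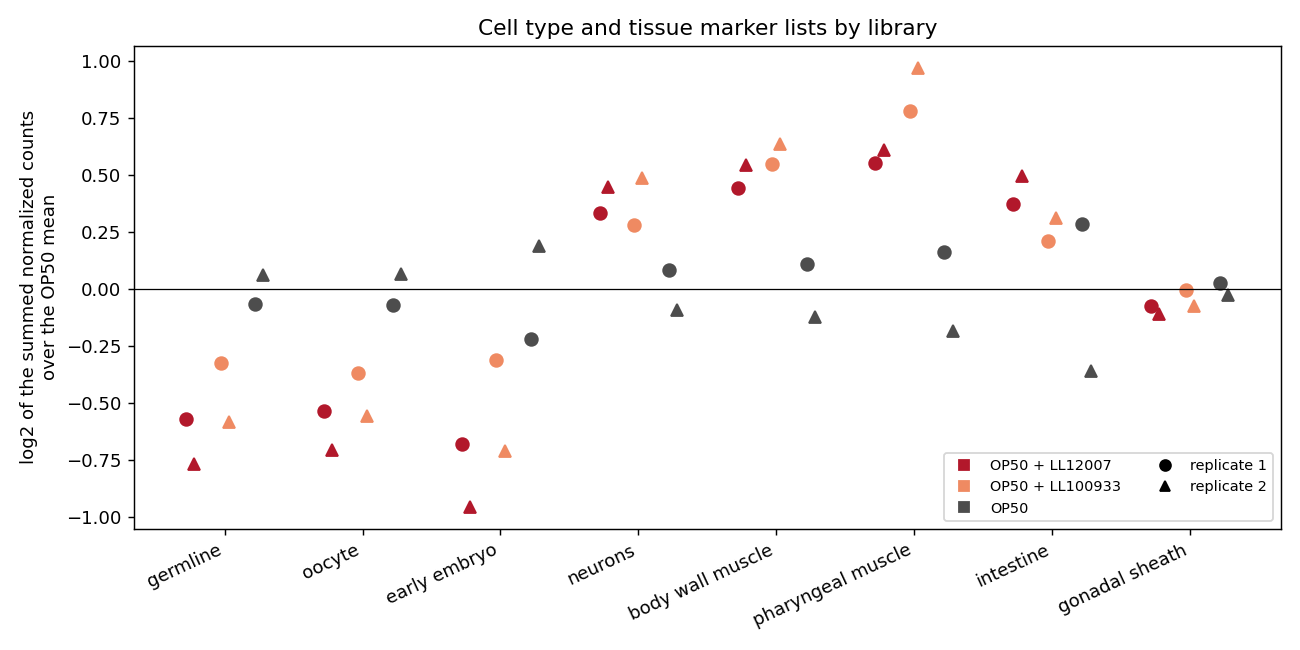
Summed normalized counts of 8 marker lists in every library, as log2 over the mean of the OP50 libraries, with dark red for OP50 + LL12007, orange for OP50 + LL100933 and grey for OP50. The germline, oocyte and early embryo lists lie below 0 in all 4 *Lactococcus* libraries, the neuronal and muscle lists lie above both OP50 libraries, and the intestine list of OP50 replicate 1 lies within the range of the *Lactococcus* libraries. The gonadal sheath list includes *ceh-18* itself.

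The rises were those of *ceh-6* and *ceh-45*. *ceh-6* encodes a POU homeodomain factor of the class III type that is needed in the excretory canal cell and in several neurons. It lies on chromosome I at 8498114 to 8502412 on the minus strand and had 125 and 123 normalized counts with OP50 + LL12007 and 131 and 116 with OP50 + LL100933, against 62.4 and 83.9 with OP50. All 4 *Lactococcus* libraries were above both OP50 libraries, at nearly the same height. The log2 fold change was 0.77 with OP50 + LL12007 (standard error 0.23, edgeR adjusted p = 0.0488) and 0.76 with OP50 + LL100933 (standard error 0.23, edgeR adjusted p = 0.0672), and between the strains it was 0.010 with a standard error of 0.22. The call with OP50 + LL12007 lies at the edge of the threshold. It was lost when any 1 library other than OP50 replicate 2 was left out, with log2 fold changes of 0.56 to 1.0 and adjusted p-values of 0.0423 to 0.277 over the edgeR fits, and DESeq2 on the 6 libraries gave an adjusted p of 0.0694.

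*ceh-45*, a Goosecoid-related gene of the paired-like group, lies on chromosome I at 1128324 to 1131737 on the plus strand. It had 132 and 119 normalized counts with OP50 + LL12007 and 188 and 144 with OP50 + LL100933, against 87.4 and 89.9 with OP50. The *Lactococcus* libraries all exceeded the OP50 libraries, and both OP50 + LL100933 libraries exceeded both OP50 + LL12007 libraries. The log2 fold change with OP50 + LL100933 was 0.90 (standard error 0.21, edgeR adjusted p = 0.0435) and that with OP50 + LL12007 was 0.50 (adjusted p = 0.130 from edgeR). Between the strains, OP50 + LL12007 over OP50 + LL100933, it was -0.41 (adjusted p = 0.534 from edgeR), so the strains were not shown to differ. With 1 library left out the call held only without OP50 replicate 1, and the log2 fold change ran over 0.69 to 1.09 with adjusted p-values of 0.0420 to 0.148 in edgeR.

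*ceh-88* and *ceh-18* were among several genes that came near a call without reaching it. *ceh-88*, among the highest by level, had 652 and 606 normalized counts with OP50 + LL12007 and 667 and 708 with OP50 + LL100933, against 513 and 516 with OP50, and its groups did not overlap. The log2 fold change was 0.42 with OP50 + LL100933 (standard error 0.12, edgeR adjusted p = 0.0576) and 0.29 with OP50 + LL12007 (adjusted p = 0.107 from edgeR). *ceh-18*, a POU gene of the gonadal sheath cells that restrains oocyte maturation, had 828 and 945 normalized counts with OP50 + LL12007 and 659 and 828 with OP50 + LL100933, against 606 and 321 with OP50. The OP50 libraries differed nearly as much from each other as from the rest, with replicate 2 lowest of all 6, and the log2 fold change was 0.93 with OP50 + LL12007 (standard error 0.28, edgeR adjusted p = 0.0667) and 0.67 with OP50 + LL100933. DESeq2 on the 6 libraries called *ceh-18* higher with both diets. Of the other 3 sheath markers, *inx-8* and *inx-9*, which encode the sheath innexins, were called lower with OP50 + LL12007 at log2 fold changes of -0.82 and -0.65 (adjusted p = 0.0245 and 0.0430 from edgeR), and *lim-7*, a LIM homeobox gene, was not called and had log2 fold changes of 0.25 with OP50 + LL12007 and 0.32 with OP50 + LL100933. The 4 genes, *ceh-18* itself among them, summed to 1974 and 1925 with OP50 + LL12007 and 2069.9 and 1975 with OP50 + LL100933, against 2116 and 2039 with OP50. The higher values of *ceh-18* and the falls of *inx-8* and *inx-9* are thus pooled in this sum, which does not show a sheath level apart from *ceh-18*.

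The CUT class had 7 members in the set, all tested, with log2 fold changes of -0.75 to 0.52 with OP50 + LL12007 and medians of -0.16 with OP50 + LL12007 and -0.14 with OP50 + LL100933. The Onecut genes *ceh-41*, *ceh-21* and *ceh-39* are neighbours on the same strand of chromosome X, with 119 bases between *ceh-41* and *ceh-21* and 1137 between *ceh-21* and *ceh-39*. *ceh-21* had 383 and 340.0 normalized counts with OP50 + LL12007 and 501 and 359 with OP50 + LL100933, against 510.2 and 528 with OP50. Its pattern over the libraries was that of *ceh-39*, with replicate 1 of OP50 + LL100933 near OP50 and the rest lower, at a log2 fold change of -0.52 with OP50 + LL12007 (adjusted p = 0.0640 from edgeR). *ceh-41*, the third of them, had 168 and 159 normalized counts with OP50 + LL12007 and 151 and 138 with OP50 + LL100933, against 166 and 154 with OP50, and its OP50 + LL12007 and OP50 libraries overlapped. How reads that fit more than 1 gene were counted is not stated, and values of such similar neighbours are less certain.

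*ceh-38* and *ceh-44*, the CUT genes with the most counts, were measured most precisely of all *ceh* genes, with standard errors of 0.10 and 0.11 with OP50 + LL12007. *ceh-38* had 2375 and 2405 normalized counts with OP50 + LL12007 and 2364 and 2552 with OP50 + LL100933, against 2628 and 2724 with OP50, and its log2 fold changes were -0.16 and -0.12 (adjusted p = 0.272 and 0.435 from edgeR). *ceh-44* had 2019 and 1925 normalized counts with OP50 + LL12007 and 1753 and 1916 with OP50 + LL100933, against 1936 and 2071 with OP50, with log2 fold changes of -0.023 and -0.13. *ceh-44* and the Onecut gene *ceh-48* are expressed in all neurons and act with other CUT genes on the genes that neurons share. *ceh-48* had 394 and 424 normalized counts with OP50 + LL12007 and 356 and 462 with OP50 + LL100933, against 222 and 349.7 with OP50, with OP50 replicate 1 lowest and all *Lactococcus* libraries above OP50, at log2 fold changes of 0.52 with OP50 + LL12007 and 0.52 with OP50 + LL100933 (adjusted p = 0.1246 and 0.146 from edgeR).

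**Figure D5:**
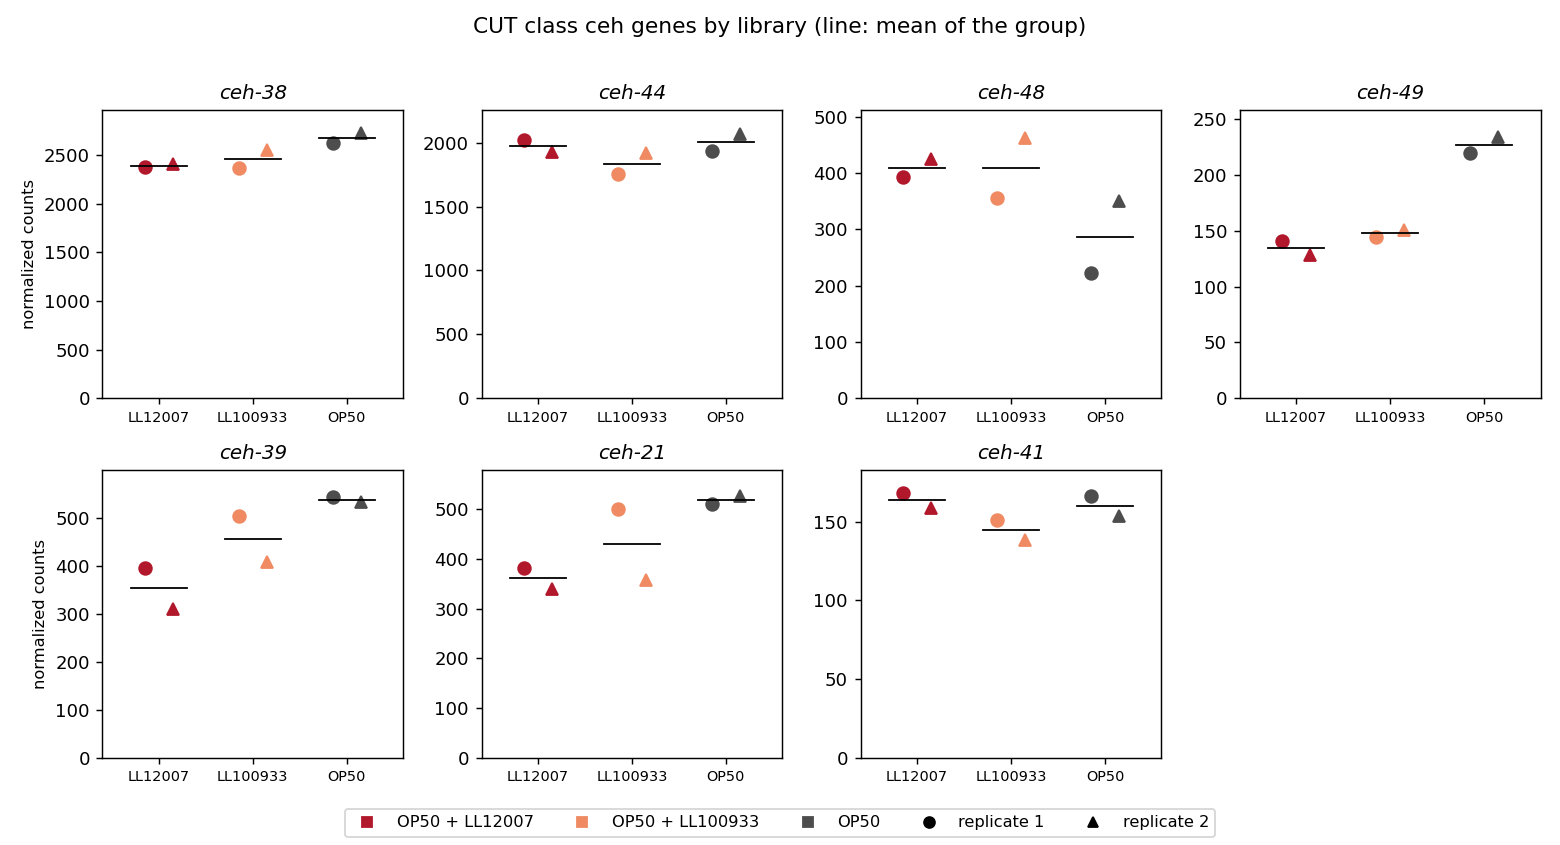
Normalized counts of the 7 CUT class *ceh* genes in every library on linear axes that start at 0, with OP50 + LL12007, OP50 + LL100933 and OP50 on each panel's axis and a line at the mean of each group. *ceh-49* and *ceh-39* are lower with OP50 + LL12007 than with OP50, the libraries of *ceh-48* lie above OP50 with both strains, and *ceh-41* and *ceh-44* overlap between OP50 + LL12007 and OP50.

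The TALE class held 3 PBC genes. *ceh-20* had 1079 and 1227 normalized counts with OP50 + LL12007 and 923 and 1041 with OP50 + LL100933, against 853 and 981 with OP50, and both OP50 + LL12007 libraries were above the other 4, at a log2 fold change of 0.33 (adjusted p = 0.0942 from edgeR). *ceh-40*, its paralog, which shares work with *ceh-20* in the embryo, had 90.7 and 92.2 normalized counts with OP50 + LL12007 and 126 and 91.03 with OP50 + LL100933, against 137 and 155 with OP50. The OP50 libraries of *ceh-40* were highest, with log2 fold changes of -0.67 with OP50 + LL12007 (adjusted p = 0.0686 from edgeR) and -0.42 with OP50 + LL100933. *ceh-60*, which acts with the Meis homolog *unc-62* to drive vitellogenin genes in the adult intestine, had 44.2 and 47.3 normalized counts with OP50 + LL12007 and 40.8 and 52.5 with OP50 + LL100933, against 63.2 and 52.6 with OP50, with a log2 fold change of -0.34 and a standard error of 0.28 with OP50 + LL12007. It shares 61 bases of exon with *ets-4* on the opposite strand, which had 2453 counts against 303 for *ceh-60*, and whether the counting used strand is not stated. The 6 vitellogenin genes had median log2 fold changes of -0.48 with OP50 + LL12007 and -0.62 with OP50 + LL100933, all below 0 and 0 of 6 called in either.

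None of the 3 sine oculis class genes was called. *ceh-34*, which specifies the neurons of the pharynx, and its paralog *ceh-33* lie 3626 bases apart on chromosome V. *ceh-33* had 39.8 and 26.5 normalized counts with OP50 + LL12007 and 51.7 and 40.7 with OP50 + LL100933, against 24.97 and 23.2 with OP50, with a log2 fold change of 0.94 with OP50 + LL100933 (adjusted p = 0.100 from edgeR). *ceh-34* had 333 and 423 normalized counts with OP50 + LL12007 and 439 and 474 with OP50 + LL100933, against 316 and 428 with OP50, and a log2 fold change of 0.30 with OP50 + LL100933. *ceh-32* had 924 and 931 normalized counts with OP50 + LL12007 and 994 and 964 with OP50 + LL100933, against 725 and 933 with OP50. For all 3 genes the OP50 + LL100933 libraries lay above OP50, and for *ceh-34* and *ceh-32* the OP50 + LL12007 libraries overlapped with OP50. Pharyngeal muscle markers were higher in the same libraries, with sums of 48695 and 50712 with OP50 + LL12007 and 57025 and 65005 with OP50 + LL100933, against 37128 and 29207 with OP50, and 3 of 4 and 4 of 4 were called higher. Among all genes tested, 8.76% and 4.38% were called higher with these diets. The part of pharyngeal muscle in the values of the 3 sine oculis class genes was not tested.

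The LIM gene *ceh-14*, which acts in the thermosensory neuron AFD and in ALA, was not called and had 87.3 and 121 normalized counts with OP50 + LL12007 and 92.5 and 138 with OP50 + LL100933, against 61.6 and 71.8 with OP50. Replicate 2 of each *Lactococcus* diet was above replicate 1, and all 4 were above OP50, at log2 fold changes of 0.64 and 0.79 (adjusted p = 0.128 and 0.0949 from edgeR). The guanylyl cyclase genes of AFD had 0 of 3 called with either diet, with medians of 0.48 and 0.35. In this list *gcy-8* was lowest with OP50 + LL100933, at -0.11, and was at 0.65 with OP50 + LL12007.

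The paired-like group had 8 genes and 1 call, that of *ceh-45*. *ceh-8*, related to Rax, had 43.1 and 63.4 normalized counts with OP50 + LL12007 and 44.4 and 58.9 with OP50 + LL100933, against 29.1 and 29.3 with OP50, with log2 fold changes of 0.86 and 0.81 (adjusted p = 0.0889 and 0.122 from edgeR). Its OP50 libraries were nearly equal and below all others. The Phox2 homolog *ceh-17*, which acts in ALA, had 66.3 and 101 normalized counts with OP50 + LL12007 and 107 and 121 with OP50 + LL100933, against 85.7 and 64.7 with OP50, with OP50 + LL100933 above OP50 and OP50 + LL12007 across it. Of 6 genes of the ALA neuron, 1 was called, *ida-1*, a dense core vesicle gene of many neurons, at 0.67 with OP50 + LL100933 (adjusted p = 0.0344 from edgeR). List medians were 0.40 with OP50 + LL12007 and 0.43 with OP50 + LL100933. In this list *ver-3* was lowest and not called, at -0.19 with OP50 + LL12007 and -0.20 with OP50 + LL100933.

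The Otx-type genes *ceh-36*, needed in AWC and ASE sensory neurons, and *ceh-37*, needed in AWB, lie 11775 bases apart on chromosome X. *ceh-36* had 72.96 and 81.8 normalized counts with OP50 + LL12007 and 118 and 94.2 with OP50 + LL100933, against 87.4 and 141 with OP50, a log2 fold change of -0.56 with OP50 + LL12007 (adjusted p = 0.174 from edgeR), and all its OP50 + LL12007 values were below OP50. *ceh-37* had 376 and 419 normalized counts with OP50 + LL12007 and 364 and 419 with OP50 + LL100933, against 350.4 and 408 with OP50, a log2 fold change of 0.069 with a standard error of 0.15. The libraries of *ceh-37* overlapped across all 3 diets. Of 8 genes of AWC and ASE, 6 were tested, while *str-2* had 0 counts and *che-1* had 8. *odr-3*, a G protein gene of olfactory neurons, was called higher with OP50 + LL12007 at 0.74 (adjusted p = 0.0474 from edgeR). List medians were 0.78 with OP50 + LL12007 and 0.75 with OP50 + LL100933. The lowest value in this list was that of *lim-6*, not called, at -0.14 with OP50 + LL12007 and -0.11 with OP50 + LL100933. The Vsx homolog *ceh-10*, which acts in AIY, CAN and RID neurons, had 101 and 79.5 normalized counts with OP50 + LL12007 and 121 and 99.6 with OP50 + LL100933, against 96.5 and 105 with OP50. The low-count genes *ceh-53* and *ceh-54* had standard errors of 0.53 and 0.77 with OP50 + LL12007.

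The Antennapedia and NK-like group had 16 genes, of which 14 were tested and 1, *ceh-51*, was called. Its 14 log2 fold changes had medians of 0.19 with OP50 + LL12007 and 0.29 with OP50 + LL100933. The widest positive values were those of low-count genes. *ceh-9* had 27.6 and 40.3 normalized counts with OP50 + LL12007 and 18.1 and 26.8 with OP50 + LL100933, against 16.6 and 8.09 with OP50, with both *Lactococcus* diets above OP50 at log2 fold changes of 1.42 (standard error 0.47, edgeR adjusted p = 0.0644) and 0.82. *ceh-12* had 12.2 and 6.91 normalized counts with OP50 + LL12007 and 19.9 and 11.8 with OP50 + LL100933, against 7.49 and 2.02 with OP50, and its log2 fold change of 1.67 with OP50 + LL100933 had a standard error of 0.66 (adjusted p = 0.124 from edgeR). *ceh-23*, which acts in the CAN and AIY neurons, had 98.4 and 92.2 normalized counts with OP50 + LL12007 and 65.3 and 99.6 with OP50 + LL100933, against 63.2 and 31.3 with OP50, where OP50 replicate 2 was lowest, and log2 fold changes of 0.99 and 0.78 (adjusted p = 0.0761 and 0.162 from edgeR).

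The engrailed homolog *ceh-16*, which acts in the seam cells of the epidermis, had 159 and 179 normalized counts with OP50 + LL12007 and 143 and 159.6 with OP50 + LL100933, against 128 and 108 with OP50, with all *Lactococcus* libraries above OP50. *ceh-19*, which acts in the pharyngeal neuron MC, had 66.3 and 55.3 normalized counts with OP50 + LL12007 and 49.9 and 53.5 with OP50 + LL100933, against 40.8 and 35.4 with OP50, also without overlap. Both share bases of exon with a gene on the opposite strand, *ceh-16* 22 bases with *polk-1* at 6106 counts and *ceh-19* 40 bases with *F20D12.2* at 13055, and *ceh-5* shares 58 with *ocrl-1* at 6325, so part of their counts could come from these partners. The anterior Hox gene *ceh-13* had 193 and 175 normalized counts with OP50 + LL12007 and 208 and 203 with OP50 + LL100933, against 163 and 187 with OP50. The EMX homolog *ceh-2*, which acts in the pharyngeal neuron M3, had 68.5 and 61.1 normalized counts with OP50 + LL12007 and 59.8 and 70.7 with OP50 + LL100933, against 59.1 and 53.6 with OP50. For *ceh-43* the values were 501 and 500.2 normalized counts with OP50 + LL12007 and 547 and 549 with OP50 + LL100933, against 463 and 658 with OP50. The differences of *ceh-13*, *ceh-2* and *ceh-43* were small, with log2 fold changes of 0.077, 0.20 and -0.16 with OP50 + LL12007 and of 0.23, 0.21 and -0.030 with OP50 + LL100933. *ceh-24*, which acts in the m8 muscle of the pharynx and in sublateral neurons, had 101 and 95.7 normalized counts with OP50 + LL12007 and 115 and 123 with OP50 + LL100933, against 78.2 and 95.00 with OP50. The NK-2 gene *ceh-27* had 398 and 351 normalized counts with OP50 + LL12007 and 515 and 366 with OP50 + LL100933, against 272 and 366 with OP50. *ceh-24* was highest in both OP50 + LL100933 libraries and *ceh-27* in replicate 1 of them, and neither was called. *ceh-5* had log2 fold changes of -0.080 and -0.041.

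The BarH-type genes *ceh-30*, which keeps the male CEM neurons alive, and *ceh-31* lie 3098 bases apart on opposite strands of chromosome X. *ceh-30* had 55.3 and 53.01 normalized counts with OP50 + LL12007 and 66.2 and 52.5 with OP50 + LL100933, against 49.9 and 78.8 with OP50. Its neighbour *ceh-31* had 54.2 and 63.4 normalized counts with OP50 + LL12007 and 62.6 and 66.4 with OP50 + LL100933, against 58.3 and 59.6 with OP50. The 3 diets overlapped for *ceh-30*, and log2 fold changes with OP50 + LL12007 were -0.24 and -0.0043 with standard errors of 0.30 and 0.25. The labels give hermaphrodites, and the male list of *mab-3*, *her-1* and *xol-1* summed to 48.6 and 44.9 with OP50 + LL12007 and 57.1 and 34.3 with OP50 + LL100933, against 47.4 and 53.6 with OP50, with 2 of 3 tested and 0 called. The *xol-1* switch was followed by a mixed list of 5 genes, *xol-1*, *sex-1*, *fox-1*, *sea-1* and *sea-2*, also with 0 called. Their log2 fold changes with OP50 + LL12007 ran from -0.62 for *sea-1* and -0.45 for *sex-1* to 0.26 for *sea-2*. Medians were 0.016 with OP50 + LL12007 and -0.18 with OP50 + LL100933. *xol-1* itself had 34.3 and 36.9 normalized counts with OP50 + LL12007, against 29.1 and 40.4 with OP50.

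A further 18 genes, mostly with high numbers in their names, were given no class here, and 15 of them were tested. Besides *ceh-92*, *ceh-83* and *ceh-88*, the one nearest to a call was *ceh-91* with 519.6 and 521 normalized counts with OP50 + LL12007 and 528 and 543 with OP50 + LL100933, against 642 and 701 with OP50. All *Lactococcus* libraries of *ceh-91* lay within a narrow band below OP50, at log2 fold changes of -0.37 and -0.33 (adjusted p = 0.0591 and 0.0990 from edgeR). *ceh-86* had 458 and 395 normalized counts with OP50 + LL12007 and 578 and 484 with OP50 + LL100933, against 487 and 726 with OP50. *ceh-99* had 130.5 and 144 normalized counts with OP50 + LL12007 and 121 and 152 with OP50 + LL100933, against 186 and 190.0 with OP50, with both diets below OP50. In the other direction *ceh-57* had 68.5 and 64.5 normalized counts with OP50 + LL12007 and 36.3 and 67.5 with OP50 + LL100933, against 35.8 and 36.4 with OP50. *ceh-62* had 92.9 and 89.9 normalized counts with OP50 + LL12007 and 85.2 and 71.8 with OP50 + LL100933, against 40.8 and 73.8 with OP50. The OP50 + LL12007 libraries did not overlap with OP50 for any of these 5 genes, and the OP50 + LL100933 libraries overlapped with OP50 for *ceh-86*, *ceh-57* and *ceh-62*. *ceh-100*, the third *ceh* gene by counts, had 1769 and 1769 normalized counts with OP50 + LL12007 and 1723 and 1862 with OP50 + LL100933, against 1578 and 2113 with OP50, at log2 fold changes of -0.060 and -0.041 with a standard error of 0.14. The rest, *ceh-58*, *ceh-74*, *ceh-79*, *ceh-82*, *ceh-89* and *ceh-93*, had log2 fold changes of -0.54 to 0.33 with OP50 + LL12007 and -0.18 to 0.33 with OP50 + LL100933.

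*ceh-83* forms a cluster on chromosome II with *ceh-82*, 426 bases away on the other strand, and *ceh-81*, 229 bases beyond. *ceh-82* had 9.95 and 3.46 normalized counts with OP50 + LL12007 and 8.16 and 11.8 with OP50 + LL100933, against 14.1 and 5.05 with OP50, with a standard error of 0.72, and *ceh-81* had 24 counts in all, so differences like that of *ceh-83* were not detectable in its neighbours at this depth. *ceh-57* and *ceh-58* lie 2031 bases apart, and *ceh-58* had 345 and 365 normalized counts with OP50 + LL12007 and 383 and 402 with OP50 + LL100933, against 332 and 476 with OP50, with the OP50 libraries spanning all others. The 5 untested genes had 24 to 45 counts over the 6 libraries and show only that transcripts were present.

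Between the strains, OP50 + LL12007 over OP50 + LL100933, 0 of the 53 *ceh* genes were called in either direction by edgeR, as were 0% of all genes. DESeq2 on the 6 libraries called 0 *ceh* genes, and 0.643% of all genes higher and 0.519% lower. At an unadjusted p under 0.05, 0 *ceh* genes were higher (0%, against 5.26% of all genes) and 1, *ceh-51*, was lower (1.89%, against 5.01%). The log2 fold change was within 0.5 of 0 for 48 of the 53 genes, with a median of -0.13 over the *ceh* genes and -0.0027 over all genes and a range of -1.04 to 0.60. Groups did not overlap for 19 genes that were lower with OP50 + LL12007 (35.8%, against 21.9% of all genes) and 8 that were higher (15.1%, against 24.6%). After *ceh-51*, *ceh-39* came closest among the called genes at -0.37 (standard error 0.16, edgeR adjusted p = 0.487).

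Of the tested *ceh* genes 14 lie on the X chromosome, which is 26.4% of them against 15% of all genes tested. Their median log2 fold change was -0.0045 with OP50 + LL12007 and -0.10 with OP50 + LL100933, while that of all 2235 tested X-linked genes was 0.26 and 0.22. The 39 autosomal *ceh* genes had medians of 0.077 and 0.23, against -0.036 and -0.021 for all autosomal genes. These are descriptions, and no test was made of the difference.

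Among 38 homeobox genes with other names, all tested, 4 were called higher and 1 lower with OP50 + LL12007 (10.5% and 2.63%, against 8.76% and 7.71% of all genes tested). The higher ones were the zinc finger homeobox gene *zfh-2* at 0.50, the neuronal gene *zag-1* at 0.45, the POU gene *unc-86*, which specifies touch and other neurons, at 0.63, and the Pax6 gene *vab-3* at a log2 fold change of 0.40 (adjusted p = 0.0289, 0.0422, 0.0438 and 0.0453 from edgeR). The caudal homolog *pal-1*, supplied to the embryo by the mother, was lower at -0.44 (adjusted p = 0.0295 from edgeR). With OP50 + LL100933, *unc-4*, which acts in motor neurons, was called higher at 1.16 (adjusted p = 0.0471 from edgeR), the 1 call among the 38 (2.63%, against 4.38% of all genes). Medians over the 38 genes were 0.29 with OP50 + LL12007 and 0.31 with OP50 + LL100933.

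Of 15 genes shared by all neurons, 6 were called higher with OP50 + LL12007 (*rab-3*, *unc-10*, *unc-31*, *snt-1*, *unc-104* and *unc-13*, which act in vesicle transport and release) and 3 with OP50 + LL100933 (*unc-10*, *unc-31* and *snt-1*), with medians of 0.60 and 0.52 and 0 called lower. The lowest value in the list was that of *maco-1*, not called, at -0.15 with OP50 + LL12007 and -0.20 with OP50 + LL100933. The counts of the 15 genes summed to 26652 and 28823 with OP50 + LL12007 and 25703 and 29648 with OP50 + LL100933, against 22420.0 and 19848 with OP50. The body wall muscle list, with 1 of 4 called higher with either diet, summed to 120057 and 128911 with OP50 + LL12007 and 129043 and 137454 with OP50 + LL100933, against 95472 and 81176 with OP50, and the intestine list, with 0 of 6 called with OP50 + LL12007 and 1 of 6 with OP50 + LL100933, summed to 32995 and 35994 with OP50 + LL12007 and 29481 and 31638 with OP50 + LL100933, against 31122 and 19868 with OP50. Among all genes tested, 8.76% were called higher with OP50 + LL12007 and 4.38% with OP50 + LL100933. Whether the share of neurons or muscle in the RNA had a part in the values of the neuronal *ceh* genes was not tested.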

How the data were processed

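Whole-worm RNA was measured in 6 libraries, 2 per diet. The deposited values are raw counts per gene. The authors trimmed the reads (Trim Galore, Trimmomatic and cutadapt, versions 0.6.5, 0.39 and 2.7 in the submitters' processing notes), then aligned them to ce11 (WBcel235) with STAR 2.7.2b and counted them with featureCounts 1.6.4. The paper gives other versions. Whether strand was used, and how reads that fit several places were handled, is not given in the sources used here.

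Counts were fitted with edgeR 4.0.16 in R 4.3.3 (filterByExpr, TMM factors, glmQLFit with robust estimation, group term only, 3 residual degrees of freedom), with Benjamini-Hochberg adjustment over the 14899 genes tested and 0.05 as the threshold. Counts rescaled to the average TMM-adjusted library size are called normalized counts. A standard error is the absolute log2 fold change over the square root of its F statistic. Exon lengths and positions were those given with the deposited counts, and neighbours within 20000 bases were found from these positions. Scripts were tested on simulated data.

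The genes, classes and lists were chosen with earlier results of these data known, from general knowledge of the worm. Every *ceh* gene could be named. Fold changes with errors are given for called *ceh* genes and the *ceh* genes with the lowest p. Called homeobox genes of other names and called neuronal genes are all named. In the germline, oocyte, muscle and intestine lists, called genes are counted and most are not named. Some genes that were not called are named too. Of these, *lim-7*, *sdz-38*, *maco-1*, *lim-6*, *ver-3*, *str-2*, *che-1*, *med-2*, *gcy-8*, *sex-1*, *fox-1*, *sea-1* and *sea-2* were added after their values were seen. The marker lists cover neurons, germ line, oocytes, early embryo, intestine, body wall muscle, pharyngeal muscle, gonadal sheath and male genes. Alternatives were DESeq2 1.42.0, fits to each pair of groups, other scaling factors, no filter, a replicate block and leaving out each library. A gene with such a name is not reported here, and no sequences were analysed.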

Additional observations from a re-analysis of the deposited data

How the results depend on the processing

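Changes of tool, scaling and filter moved the number of calls. With OP50 + LL12007 against OP50 (1 *ceh* gene higher and 5 lower), edgeR on the 4 libraries gave 0 higher, no filter on low counts gave 6 higher and 8 lower (10.3% and 13.8%, against 10.8% and 7.51% of all genes), and leaving out 1 library gave 0 to 3 higher and 0 to 9 lower. The number lower was 0 without either OP50 + LL12007 library (0% of all genes), 2 without OP50 replicate 2 (3.64%, against 3.15%) and 9 without OP50 replicate 1 (16.4%, against 12.4%), and in the last of these fits 17.1% of all genes were higher. The 5 genes that fell were called in 8 of the 8 alternatives that kept all libraries of the pair. Of these, edgeR on the 4 libraries called 0 *ceh* genes higher and 6 lower (0% and 11.8%, against 7.6% and 8.54% of all genes). The 6 were the 5 genes that fell and *ceh-21*. With OP50 + LL100933 against OP50 (1 higher and 0 lower), DESeq2 on all 6 libraries gave 2 higher and 1 lower (8.43% and 4.94% of all genes), upper-quartile factors 2 higher (5.63% of all genes), no filter 8 higher and 2 lower (7.82% and 3.22% of all genes), and edgeR and DESeq2 on the 4 libraries 0 higher each (0.426% and 4.05% of all genes). Leaving out 1 library gave 0 to 3 higher and 0 to 2 lower there, the most without OP50 replicate 1 (11% and 6.78% of all genes). *ceh-45* was called in 5 of the 8 alternatives that kept all libraries and *ceh-6* with OP50 + LL12007 in 4 of 8. Between the strains, no filter gave 1 lower, *ceh-51*, against 0 (1.56% of all genes). Median log2 fold changes of the *ceh* genes ran over -0.023 (without OP50 replicate 1) to 0.14 (without OP50 replicate 2) with OP50 + LL12007 and over 0.068 to 0.27 (without the same libraries) with OP50 + LL100933. For *ceh-6* between the strains, 0.010 became -0.0034 without OP50 replicate 2, and over all libraries left out it ran from -0.075 (without OP50 + LL100933 replicate 2) to 0.10. Fits without a library have fewer samples, and the cause of the other shifts was not tested. With the replicate number as a block, 0 *ceh* genes were higher with OP50 + LL100933 (1.82% of all genes) and 0 with OP50 + LL12007 (6.56% of all genes). The 5 falls were called there (9.43% of the tested *ceh* genes, against 6.34% of all genes). The deviations of same-numbered libraries had a correlation of 0.20 between the *Lactococcus* diets, but of -0.058 between OP50 + LL12007 and OP50 and -0.0016 between OP50 + LL100933 and OP50, so the numbers were not taken to pair the libraries. In the fit to the 6 libraries 5 *ceh* genes, with 24 to 45 counts each, did not pass the expression filter of edgeR. Fold changes of the low-count genes have wide errors.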
